A study of Mus musculus with 5 samples.

Results

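The genes described here encode the hormones of the islet of Langerhans and proteins of its rarer endocrine cells. They are Ins2 (insulin 2; probe set 10569358), Iapp (amylin; 10542632), Gcg (glucagon; 10483074), Sst (somatostatin; 10438730), Ppy (pancreatic polypeptide; 10391555) and Pyy (peptide YY; 10391561). The others are Ghrl (ghrelin; 10546962), Rbp4 (retinol-binding protein 4; 10467319) and Hhex (a homeodomain transcription factor; 10462818). They were taken by name, as the probe set annotated to that gene alone, and all 9 were found among the 19938 genes measured. Each had 1 such probe set. Insulin 1 (Ins1) was not analysed here.

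RNA came from pancreatic islet cells of C57BL/6 mice heterozygous for the Flattop allele FVR/+, aged 8 to 12 weeks and of undetermined sex. The cells had been separated by flow cytometry by Flattop status, and the mice received no treatment. There were 3 arrays of Flattop-positive and 2 of Flattop-negative cells, each from a pool of 4 to 6 mice. Both fractions carried the same heterozygous genotype, so no group with 2 unmodified alleles was compared. Because cells of several mice were pooled, an array averages over animals, and the labels do not say whether a positive and a negative pool shared mice. The labels name islet cells and not β-cells, so hormone transcripts of every endocrine cell type could be present in either fraction.

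Islet hormones are made by different cells. β-cells release insulin and amylin and lower blood glucose, while α-cells release glucagon and raise it. Somatostatin of the δ-cells acts on neighbouring cells to restrain insulin and glucagon release, and pancreatic polypeptide, peptide YY and ghrelin come mainly from PP-cells and ε-cells, with some peptide YY in other endocrine cells. Hhex is required for δ-cells, and Rbp4, the plasma carrier of retinol, is enriched in them.

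The 5 arrays had median signals of 4.74 to 4.98, and their highest gene lay between 13.12 and 13.66, all as log2 signals. The 1027 olfactory receptor genes, assumed to be mostly unused in islet cells, served as a floor, and their 95th percentile lay between 4.29 and 4.86. Cfap126, which encodes Flattop, had a mean signal of 6.13 ± 0.10 (SD, n = 3) in the positive and 5.48 ± 0.05 (SD, n = 2) in the negative fraction. Its adjusted p in limma was 0.274. Over all genes the log2 difference, positive minus negative, had a median of -0.10.

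No hormone or minor endocrine gene separated the fractions. At an adjusted p of 0.05 limma called 0 of the 9, against 0% of all genes, and 0 had an unadjusted p under 0.05, against 13.8%. Their groups overlapped in every case, with 0 of 9 free of overlap against 34.7% of all genes. Their adjusted p-values in limma ran from 0.496 for Ghrl to 0.981 for Pyy. The larger contrast lay inside the Flattop-negative group. Its replicate 1 had the lowest signal of the 5 arrays for 6 of the 9 genes, against 24.1% of all genes, and its replicate 2 had the highest for 7, against 31.3%. For Sst, Ppy, Pyy, Rbp4 and Hhex both held, against 7.64% of all genes, with Hhex under the olfactory floor on replicate 1. In RNA from sorted pools, fewer cells of a type and less of its RNA per cell cannot be told apart. The RNA quality of the pools was not tested.

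**Figure D1:**
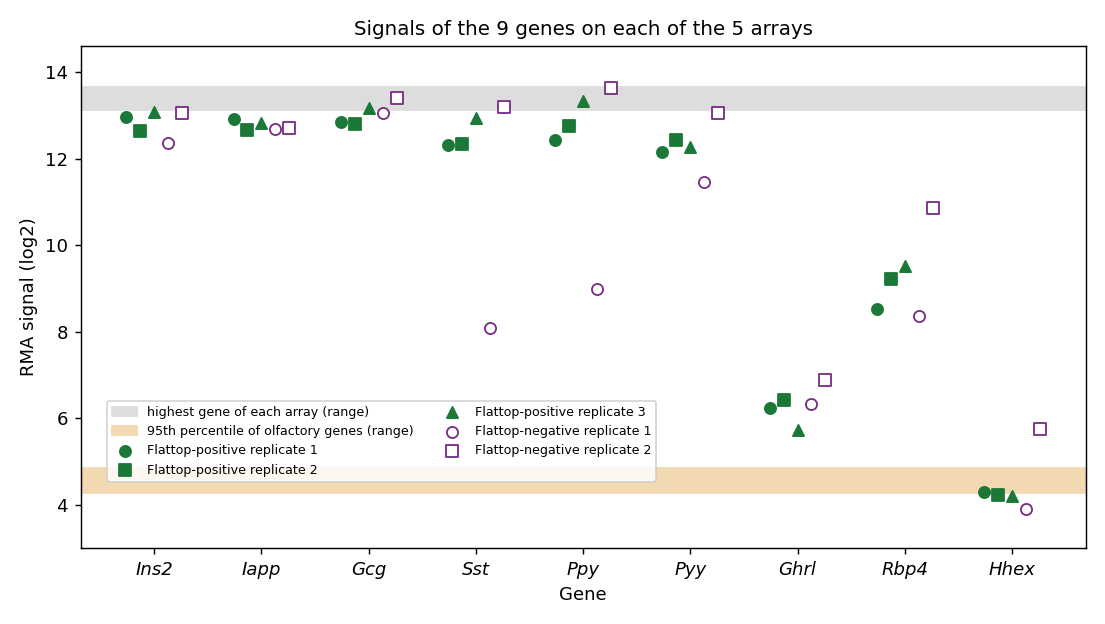
RMA signal (log2, vertical axis) of the 9 genes on the 5 arrays, with filled green symbols for Flattop-positive and open purple symbols for Flattop-negative arrays. The grey band spans the highest gene of each array (13.12 to 13.66) and the tan band the 95th percentile of olfactory genes (4.29 to 4.86). Sst and Ppy stood at 8.08 and 8.98 on Flattop-negative replicate 1, far below the other 4 arrays.

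The β-cell hormone genes reached close to the highest signals of every array. Ins2 had signals of 12.95, 12.64 and 13.08 in the Flattop-positive pools against 12.37 and 13.04 in the Flattop-negative pools. Only Flattop-negative replicate 1 lay below the positive range, by 0.28. The difference was 0.18 ± 0.28 log2 units (SE), with a 95% confidence interval of -0.52 to 0.89 (adjusted p = 0.767 in limma), and it became negative with cyclic loess (-0.23) or without Flattop-negative replicate 1 (-0.15). Ins2 was the 6th to 10th highest of all genes on each array. It lay within 1 log2 unit of the highest gene on all 5 arrays, which may limit how far a difference could show. The highest of all probe sets lay between 13.73 and 13.85, and a limit near that top was not tested.

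Iapp, whose product is stored and released with insulin, varied least of the 9 genes. Its signals were 12.92, 12.65 and 12.82 in the positive fraction and 12.69 and 12.72 in the negative fraction. Both negative arrays lay inside the positive range, and the 5 arrays spanned 0.27 log2 units. The difference was 0.10 ± 0.19 log2 units (SE; adjusted p = 0.825 in limma), with an interval of -0.38 to 0.57, and it was -0.32 after cyclic loess. Iapp was also within 1 log2 unit of the top on all 5 arrays.

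These flat hormone signals stood beside a different picture for the other β-cell markers. Leaving out Ins2 and Iapp, 22 of the 26 other listed β-cell markers were measured, and 20 lay higher and 2 lower in the positive fraction, with a median log2 difference of 1.19. Of these, 14 were higher at an unadjusted p under 0.05, against 8.48% of all genes, and 0 passed an adjusted p of 0.05 in limma. The glucose transporter gene Slc2a2 had the smallest p, at 9.28, 9.07 and 9.15 in the positive against 7.84 and 7.53 in the negative pools (adjusted p = 0.198 in limma). Ucn3, a peptide released with insulin by mature β-cells, had signals of 11.14, 10.84 and 11.01 against 10.28 and 9.29. Both genes were named by a rule that asks for no overlap between groups, so their lack of it is not a finding. Over the 22 markers, 16 lay higher and 1 lower without overlap, against 13.7% and 21% of all genes.

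Gcg, the glucagon precursor gene, had signals of 12.85, 12.81 and 13.17 in the Flattop-positive pools against 13.06 and 13.39 in the Flattop-negative pools. Flattop-negative replicate 2 was highest and replicate 1 lay inside the positive range. The difference was -0.28 ± 0.22 log2 units (SE; adjusted p = 0.572 in limma), with an interval of -0.85 to 0.28. Gcg was among the 9 highest genes on each array and 0.06 below the top gene on Flattop-negative replicate 1. The highest of all probe sets on that array read 13.75, and whether the scale limits the Gcg difference was not tested. The difference of Gcg kept its negative sign under all 13 alternatives tried, between -0.68 and -0.12. Of the 15 other α-cell markers measured, 10 lay lower and 5 higher in the positive fraction, with a median of -0.36. Over all genes 11802 lay lower and 8136 higher. At an unadjusted p under 0.05, 4 of the 15 were lower and 1 higher, against 5.37% and 8.48% of all genes. Smarca1, a chromatin remodelling ATPase, had 5.53, 5.42 and 5.59 against 7.69 and 7.09, and Sstr2 had 4.50, 4.29 and 4.53 against 5.26 and 5.78, below the olfactory floor on 1 array. Tm4sf4, a tetraspanin-like membrane protein, ran the other way, at 11.20, 10.85 and 10.67 against 9.16 and 9.58.

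Sst, the δ-cell hormone gene, showed the widest spread of the 9 genes. Its signals were 12.32, 12.33 and 12.93 in the Flattop-positive pools against 8.08 and 13.19 in the Flattop-negative pools. Flattop-negative replicate 1 was thus 4.23 log2 units, or 18.8-fold, below the lowest positive array, while replicate 2 was above all others. The difference between the groups was 1.89 ± 1.42 log2 units (SE), with an interval of -1.67 to 5.44 (adjusted p = 0.557 in limma). Leaving out Flattop-negative replicate 1 gave -0.67 and leaving out replicate 2 gave 4.44. Each of these estimates rests on a lone negative array, so the spread within the negative group could not be measured. Sst was the 5th to 20th highest gene on 4 arrays and the 1588th on Flattop-negative replicate 1.

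Ppy, the marker hormone of PP-cells, followed the same pattern. It had signals of 12.44, 12.76 and 13.34 in the positive pools against 8.98 and 13.63 in the negative pools. Flattop-negative replicate 1 lay 3.46 log2 units below the lowest positive array, and replicate 2 lay 0.29 above the highest. The difference was 1.54 ± 1.31 log2 units (SE; adjusted p = 0.596 in limma), with an interval of -1.73 to 4.81. Leaving out Flattop-negative replicate 1 gave -0.78 and leaving out replicate 2 gave 3.86. Sst and Ppy were the 2 of the 9 genes past the adjusted threshold without replicate 2, against 2.18% of all genes. On Flattop-negative replicate 2, Ppy was the 2nd highest gene and 0.03 below the top, and on replicate 1 it was the 599th.

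The promoters of Sst and Ppy are shown because both genes were low on Flattop-negative replicate 1, and that of Gcg because Gcg was not. Each is the 250 bases before the RefSeq gene start in GRCm38.p6, on the minus strand, at chr16:23890845-23891094 for Sst, chr11:102101320-102101569 for Ppy and chr2:62483654-62483903 for Gcg. Capitals mark matches on either strand to the cAMP response element TGACGTCA, to the TATA box TATAAA or to the homeodomain core TAATTA.
Sst: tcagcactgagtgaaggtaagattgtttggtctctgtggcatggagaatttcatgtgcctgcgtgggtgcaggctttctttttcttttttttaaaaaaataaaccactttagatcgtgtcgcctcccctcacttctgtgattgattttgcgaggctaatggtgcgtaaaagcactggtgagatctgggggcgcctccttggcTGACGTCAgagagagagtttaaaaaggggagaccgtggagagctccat
Ppy: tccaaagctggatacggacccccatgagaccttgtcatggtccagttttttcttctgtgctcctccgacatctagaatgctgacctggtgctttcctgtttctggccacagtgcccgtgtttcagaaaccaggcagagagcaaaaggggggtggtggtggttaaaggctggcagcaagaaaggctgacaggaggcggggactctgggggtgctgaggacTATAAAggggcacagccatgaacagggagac
Gcg: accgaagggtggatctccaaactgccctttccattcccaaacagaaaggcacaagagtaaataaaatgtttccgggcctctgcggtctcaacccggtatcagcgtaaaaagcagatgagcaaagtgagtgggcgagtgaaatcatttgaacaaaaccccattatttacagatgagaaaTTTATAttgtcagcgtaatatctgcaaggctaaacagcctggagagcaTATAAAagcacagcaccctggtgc
The Sst window held 1 cAMP response element, from 48 to 41 bases before the start, a motif found in 1.55% of the 32851 mouse windows of this length. It is the only one of the 3 windows with that motif. The Ppy window held 1 TATAAA match, from 31 to 26 bases before the start, and the Gcg window held 2, against 12.4% of all windows with at least 1. TAATTA was in 0 of the 3 windows, against 4.84% of all. The E-box CANNTG, which is not capitalised, had 1 match in Sst, 0 in Ppy and 3 in Gcg, against 66.2% of all windows with at least 1. No searched motif was shared by Sst and Ppy in these windows, and whether these sequences bear on the signals was not tested. A match in letters is a description of the sequence and does not show binding.

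**Figure D2:**
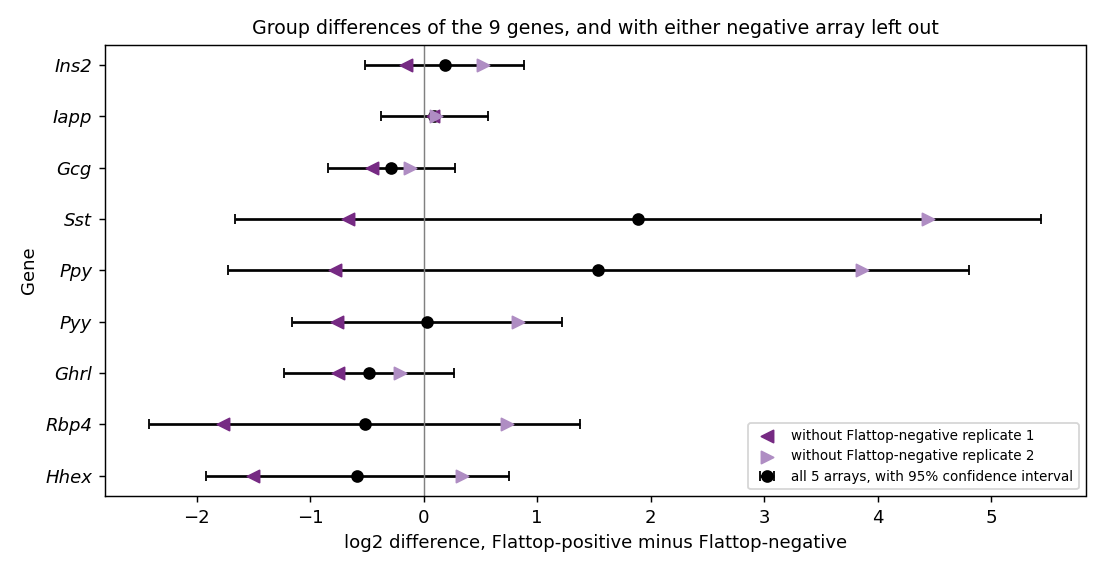
Log2 difference, Flattop-positive minus Flattop-negative (horizontal axis), for each of the 9 genes. Black points and bars give the estimate from 5 arrays with its 95% confidence interval, and triangles give the estimate without either Flattop-negative array. All 9 intervals include 0, and the triangles for Sst lie at -0.67 and 4.44.

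The low Sst and Ppy signals on Flattop-negative replicate 1 were shared with genes that are not endocrine markers. By the root mean square difference between deviations from each gene's own mean over the 5 arrays, the gene most like Sst was Ppy (0.25 log2 units). The others were Rplp0 (0.28) and Rplp1 (0.31), which encode proteins of the ribosomal stalk, Gstp1 (0.39), a glutathione transferase, and Pcsk1n (0.47), the granule protein proSAAS. Rplp1 had signals of 12.66, 12.47 and 12.66 in the positive pools against 8.14 and 12.66 in the negative pools. It thus shared the low value of Flattop-negative replicate 1 but not the height of replicate 2. For Ppy the most alike were Sst, Pcsk1n (0.28), the histone variant gene H2az1 (0.42), the vault RNA gene Vaultrc5 (0.42) and Rplp1 (0.43). Within 0.5 log2 units lay 7 genes for Sst and 9 for Ppy. Over all genes, 44 lay more than 3 log2 units below the lowest positive array on Flattop-negative replicate 1, and Sst was 11th in that order, behind Rmrp, Rplp0, Selenow and Gstp1 among others. Whether the low values of these genes and of Sst and Ppy have a common source was not tested.

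Hormone genes at the top of the scale did not share that low value evenly. At signals of 12 or more on all 3 Flattop-positive arrays, a limit set after the values were seen, there were 22 genes, among them Ins2, Iapp, Gcg, Sst, Ppy and Pyy. On Flattop-negative replicate 1, 8 of the 22 lay more than 1 log2 unit below the lowest positive array and 3 more than 3 units below, namely Rplp1, Sst and Ppy. Ttr, the transthyretin gene of α-cells and PP-cells, had 12.27, 12.34 and 12.41 in the positive pools against 9.69 and 12.67 in the negative pools. Chga, the chromogranin A gene of endocrine granules, had 12.97, 12.85 and 13.02 against 10.44 and 12.84. Ins2, Iapp and Gcg stayed within 0.28 log2 units of the positive range on that array.

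**Figure D3:**
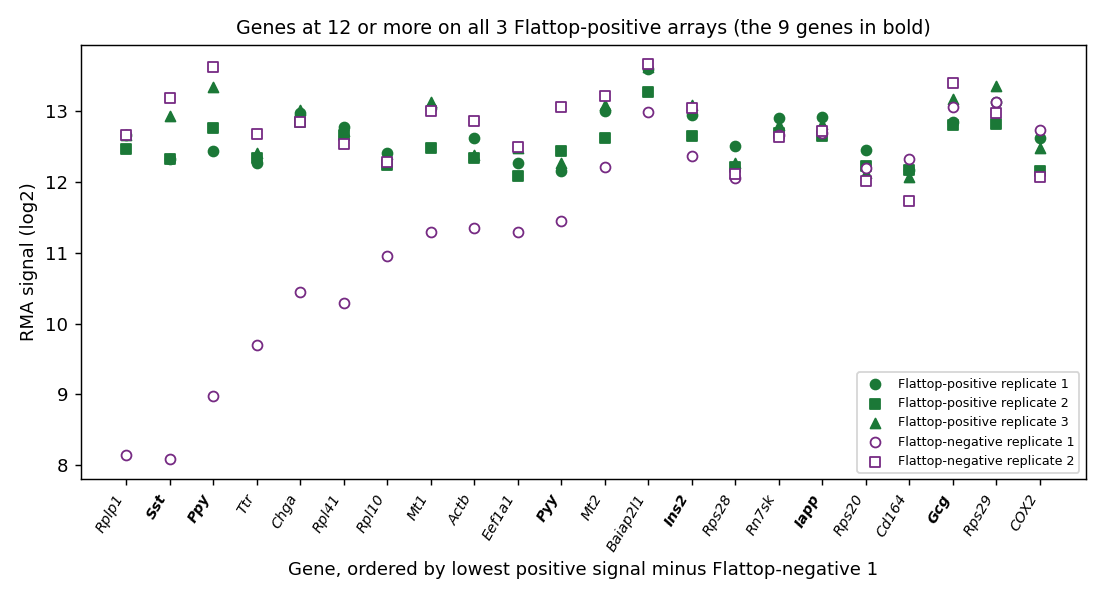
RMA signal (log2, vertical axis) on each array for the 22 genes at 12 or more on all 3 Flattop-positive arrays, ordered by how far Flattop-negative replicate 1 lies below the lowest positive array, with the genes described here in bold. Rplp1, Sst and Ppy are lowest on Flattop-negative replicate 1 (8.14, 8.08 and 8.98), while Iapp lies between 12.65 and 12.92 and Gcg between 12.81 and 13.39 on all 5 arrays.

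Pyy encodes a peptide of the same family as pancreatic polypeptide, and in RefSeq it is the neighbour of Ppy on chromosome 11 with 0 annotated genes between them. Its signals were 12.15, 12.43 and 12.27 in the positive pools against 11.45 and 13.05 in the negative pools. The negative arrays lay on either side of the positive range, 0.70 below and 0.62 above it. The difference was 0.03 ± 0.48 log2 units (SE; adjusted p = 0.981 in limma), with an interval of -1.16 to 1.22, and its sign was negative on repeated quantile normalisation (-0.06) and after cyclic loess (-0.40). Without replicate 1 of the negative pools it was -0.77, and without their replicate 2 it was 0.83. Pyy thus had the same order over the negative arrays as Ppy, over a span of 1.60 log2 units where Ppy had 4.65. The genes with the most similar pattern were Man1c1 (0.04), Chd4 (0.05), Rgl2 (0.05), Prss8 (0.07) and Scrib (0.09). Within 0.5 log2 units of Pyy lay 6627 of the 19938 genes.

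Ghrl, the ghrelin gene of ε-cells, lay between the 3568th and the 7974th place of all genes on the 5 arrays. It had signals of 6.24, 6.42 and 5.74 in the positive pools against 6.34 and 6.89 in the negative pools, all above the olfactory floor. Flattop-negative replicate 2 was highest and replicate 1 lay inside the positive range. The difference was -0.48 ± 0.30 log2 units (SE; adjusted p = 0.496 in limma), with an interval of -1.23 to 0.27. Its sign stayed negative under all 13 alternatives, between -0.82 and -0.20. The genes most like Ghrl were Arhgef40 (0.06), Nfe2l3 (0.08), Mir100hg (0.08), Ppp1r12b (0.08) and Slc8b1 (0.08). That likeness is not particular, since 11674 of the 19938 genes lay within 0.5 log2 units of Ghrl. Among 10 other ε-cell markers measured, 2 lay higher and 8 lower in the positive fraction, against 8136 and 11802 of all genes. The median of the 10 was -0.34, and 8 of them had mean signals below the olfactory floor. Mboat4, which encodes the enzyme that acylates ghrelin, had a mean signal of 4.34 ± 0.14 (SD, n = 3) in the positive and 4.84 ± 0.23 (SD, n = 2) in the negative fraction, close to that floor.

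Rbp4 was lowest on Flattop-negative replicate 1 and highest on replicate 2. Its signals were 8.53, 9.23 and 9.51 in the positive pools against 8.36 and 10.86 in the negative pools. Replicate 2 lay 1.35 log2 units, or 2.55-fold, above the highest positive array, while replicate 1 was only 0.17 below the lowest. The difference was -0.52 ± 0.76 log2 units (SE; adjusted p = 0.755 in limma), with an interval of -2.42 to 1.38, and it was 0.73 without replicate 2 of the negative pools and -1.77 without their replicate 1. The genes most like Rbp4 were Adamts1 (0.12), a secreted protease, Msh5 (0.16), the tetraspanin gene Cd81 (0.16), Etv1 (0.18) and Kbtbd11 (0.20). Within 0.5 log2 units of Rbp4 lay 363 genes. Etv1, an ETS transcription factor on the δ-cell list, had 6.19, 6.69 and 7.18 against 6.33 and 8.77.

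Hhex lay near the floor on most arrays. Its signals were 4.30, 4.24 and 4.21 in the positive pools against 3.91 and 5.76 in the negative pools, and on 3 of the 5 arrays it was below the olfactory 95th percentile. Only Flattop-negative replicate 2 stood clear of the floor. Because the positive signals lay at or under the floor, no fold is given for the gap between them and replicate 2, and the difference between groups carries the same limit. The difference was -0.58 ± 0.54 log2 units (SE; adjusted p = 0.619 in limma), with an interval of -1.92 to 0.75, and it was 0.34 without that array and -1.51 without the other negative array. Most like Hhex were Ston2 (0.10), an endocytic adaptor, Nyap1 (0.11), Laptm5 (0.12), a lysosomal protein of immune cells, the chemokine gene Cx3cl1 (0.12) and Rin1 (0.13). Within 0.5 log2 units of Hhex lay 3099 of the 19938 genes.

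Sst and Rbp4 are both genes of δ-cells, and they did not change by the same amount from array to array. On Flattop-negative replicate 1, Sst was 4.23 log2 units below the lowest positive array, against 0.17 for Rbp4. On Flattop-negative replicate 2, Sst was 0.26 above the highest positive array, near the top of the scale, against 1.35 for Rbp4. Hhex could not be set beside them, since it was under the floor on replicate 1. Of 24 other δ-cell markers measured, Flattop-negative replicate 2 was highest in 10 and replicate 1 lowest in 4, against 31.3% and 24.1% of all genes. Both held for 2 of the 24, against 7.64% of all genes. Frzb, the gene of a secreted Wnt-binding protein, named after its values were seen, ran another way, at 9.24, 9.27 and 9.23 in the positive pools against 9.17 and 7.29 in the negative pools. Of these 24, 7 lay higher and 17 lower in the positive fraction, against 8136 and 11802 of all genes. The median of the 24 was -0.20. At an unadjusted p under 0.05, 1 was lower, Gpc5, and 0 were higher, against 5.37% and 8.48% of all genes. Over all 27 δ-cell markers measured the median turned from -0.20 to 0.105 without Flattop-negative replicate 2. Gpc5 was below the olfactory floor on all 5 arrays, and 11 of the 24 had mean signals under it.

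Among 16 other PP-cell markers measured, 7 lay higher and 9 lower in the positive fraction, against 8136 and 11802 of all genes. The median of the 16 was -0.13. Over all 18 PP-cell markers measured the median was -0.04, and it was 0.05 without Flattop-negative replicate 2. Among the 16, Flattop-negative replicate 1 was lowest in 4 and replicate 2 highest in 7, against 24.1% and 31.3% of all genes, and both held for 2, against 7.64%. At an unadjusted p under 0.05, 1 of the 16 was lower and 0 were higher, against 5.37% and 8.48% of all genes. That marker was Abcc9, a subunit of ATP-sensitive potassium channels. It had 3.74, 3.92 and 3.83 against 4.42 and 4.52, below the floor on every array.

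Markers of cells outside the endocrine islet were often highest on Flattop-negative replicate 2, where the olfactory floor was highest too. That floor was 4.86 there, against 4.29 to 4.45 on the positive arrays and 4.75 on the other negative array. Replicate 2 was the highest array for 18 of 22 immune, 17 of 20 stellate and mesenchymal and 15 of 18 endothelial markers, against 31.3% of all genes. The mean signal of the immune list was 4.22 to 4.41 in the positive pools against 4.31 and 5.31 in the negative pools. That of the stellate list was 4.22 to 4.57 against 4.51 and 5.30, and that of the endothelial list 3.92 to 4.02 against 4.10 and 4.56. Of these markers 12, 10 and 13 had mean signals under the olfactory floor. Acinar markers had means of 4.33 to 4.52 against 4.62 and 5.15, duct markers 6.33 to 6.39 against 5.99 and 6.87, and glial markers 3.95 to 4.29 against 4.41 and 4.64. The endothelial and glial means stayed under the floor of each array. Without replicate 2, the median difference was 0.01 for the immune and 0.06 for the duct list, where it was -0.44 and -0.18 over the 5 arrays. The part of such cells, and of the higher floor, in the hormone and δ-cell values of this array was not tested.

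**Figure D4:**
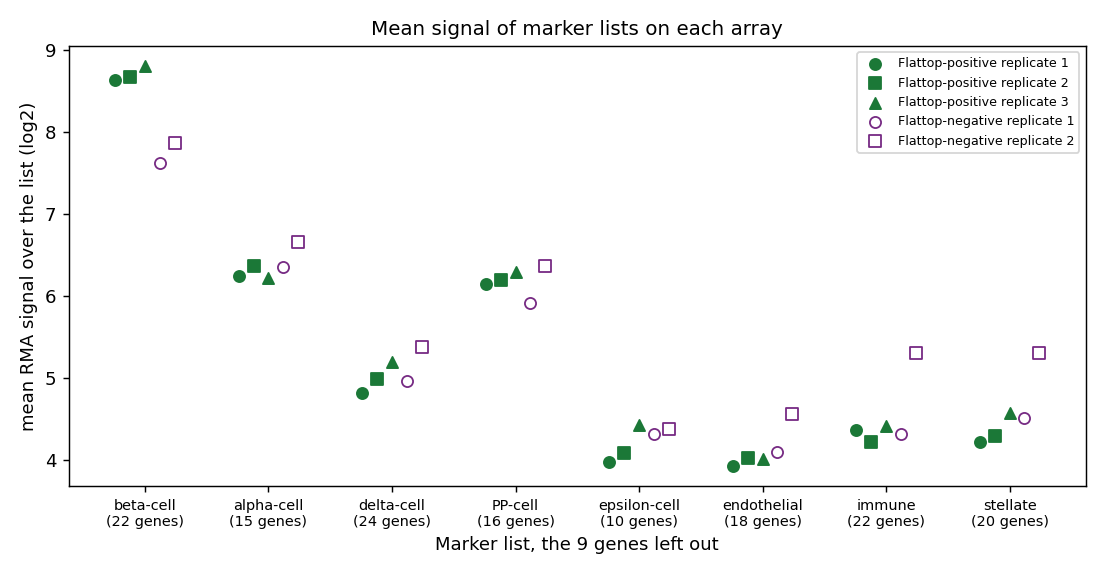
Mean RMA signal (log2, vertical axis) of 8 marker lists on each array, leaving out the 9 genes described here, with the number of genes in brackets. The β-cell list lay at 8.64 to 8.81 for Flattop-positive and at 7.62 and 7.87 for Flattop-negative pools. The immune and stellate lists were highest on Flattop-negative replicate 2 (5.31 and 5.30).

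Hormone receptor genes lay in both directions. The list of 28 held receptors of the hormones described here and of others, such as galanin, corticotropin-releasing hormone and the incretin GIP. Of these, 12 lay higher and 16 lower in the positive fraction, against 8136 and 11802 of all genes. The median of the 28 was -0.09, and 11 of them had mean signals under the olfactory floor. The median was 0.05 without Flattop-negative replicate 2. At an unadjusted p under 0.05, 4 were higher, the GIP receptor gene Gipr among them, and 2 lower, against 8.48% and 5.37% of all genes, and 0 passed an adjusted p of 0.05 in limma. Glp1r, the receptor of glucagon-like peptide 1, which Gcg also encodes, had 10.00, 10.03 and 10.14 in the positive against 7.70 and 8.75 in the negative pools (adjusted p = 0.207 in limma). Gcgr, the glucagon receptor gene, had 6.63, 6.69 and 7.47 against 5.27 and 6.17. Sstr3, a somatostatin receptor gene, had 8.28, 8.16 and 6.99 against 6.55 and 6.49, whereas Sstr2 lay higher in the negative fraction, as given above. Calcr, which forms the amylin receptor with RAMP proteins, had 3.89, 3.98 and 4.03 against 4.39 and 4.58, below the floor on all 5 arrays. The receptors of the neuropeptide Y family were measured at mean signals of 2.81 to 3.81 in either fraction, also under that floor.

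Genes that carry or use retinol, the ligand of Rbp4, numbered 25 measured of 26 listed, Rbp4 itself not counted. Of these, 4 lay higher and 21 lower in the positive fraction, against 8136 and 11802 of all genes. Mean signals of 10 of the 25 were under the olfactory floor. That floor was higher on the negative arrays (4.75 and 4.86) than on the positive arrays (4.29 to 4.45), and its part in these counts was not tested. The median of the 25 was -0.23, and it was 0.07 without Flattop-negative replicate 2. With all 5 arrays, 0 of the 25 had an unadjusted p under 0.05, against 13.8% of all genes. Stra6, which encodes the cell surface receptor of retinol-binding protein, had 4.71, 5.12 and 4.85 in the positive against 5.25 and 5.39 in the negative pools (adjusted p = 0.423 in limma). Ttr, whose product binds Rbp4 in plasma, is given above.

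Regulators of endocrine identity other than Hhex, 29 measured, had 16 higher and 13 lower, with a median of 0.10. At an unadjusted p under 0.05, 3 were higher, the β-cell factors Pdx1, Nkx6-1 and Glis3, and 0 were lower, against 8.48% and 5.37% of all genes. Over all 30 regulators, Hhex included, the median was 0.06, and it was -0.09 without Flattop-negative replicate 1 and -0.03 without Flattop-positive replicate 3. Pdx1, which also activates Sst in δ-cells, had 8.69, 9.03 and 8.86 in the positive against 7.67 and 7.36 in the negative pools (adjusted p = 0.198 in limma). It was thus lower on both Flattop-negative arrays. The signal of a pool does not give the level of Pdx1 in δ-cells, and its bearing on the Sst values was not tested.

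Other peptide genes of the islet varied between pools in a further way. Of 30 secreted peptide genes that are not among the 9, 8 lay higher and 22 lower in the positive fraction. Mean signals of 9 of these 30 were under the olfactory floor, which was higher on both negative arrays. Over all genes 8136 lay higher and 11802 lower, and the median of the 30 was -0.23. Over all 37 on the list the median turned from -0.20 to 0.11 without Flattop-negative replicate 2. Tac1, the substance P precursor gene, named after its values were seen, had 3.95, 3.46 and 9.55 in the positive pools against 4.83 and 10.62 in the negative pools. Npy, the neuropeptide Y gene of the same family as Ppy and Pyy and also named after its values were seen, had 6.00, 5.70 and 8.10 against 6.31 and 9.03. Both were high on Flattop-positive replicate 3 and Flattop-negative replicate 2 and low on the other 3 arrays, a pattern that cut across the sort. Among the 9 genes, the highest positive signal of Ins2, Gcg, Sst, Ppy and Rbp4 was on Flattop-positive replicate 3, by 0.13 to 0.60 log2 units over the next. That of Iapp and Hhex was on replicate 1, and that of Pyy and Ghrl on replicate 2. The share of all genes with each order was not counted, so no likeness to Tac1 or Npy is read from it.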

How the data were processed

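The authors deposited log2 signals for 35556 probe sets, from RMA in version 1.3.0.187 of Affymetrix Expression Console (source: the submitters' processing notes). Their genome build is not stated in the sources at hand. The 21789 probe sets with 1 gene symbol in the platform annotation were reduced to the brightest per gene, leaving 19938 genes. Signals of different probe sets do not rank transcript amounts. No detection calls were used, and the number of arrays limits the precision.

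All genes were fitted in limma 3.58.1 (R 4.3.3) on group alone, with eBayes variances, two-sided p-values, Benjamini-Hochberg adjustment and 95% intervals. P-values measure the spread between these pools. With 3 and 2 arrays, 0.1 is the smallest one-sided p of an exact permutation test. The fit was tested on simulated data with 19938 genes and the same numbers of arrays. It found 0% of true changes of 1 log2 unit, 14.2% of those of 2 and 81.9% of those of 3. In the simulation few genes changed, and the noise was independent, normal and equal in both groups. These shares may therefore not hold for the present arrays. The 15 gene lists (347 entries, 318 measured) were described by counts and medians only. Genes named are the 9 described, up to 3 per list with the smallest p under 0.05 and no overlap, the 5 most alike in pattern for those ranging over at least 1 log2 unit, and Cfap126; others were chosen after their values were seen. The genes and lists were chosen with earlier results of these data known. Promoters came from a reference set of windows at RefSeq gene starts, which held 8 of the 9 genes but not Ins2. Alternatives were a replicate block, leaving out single arrays, a filter on dim genes, array centring, quantile normalisation, cyclic loess, averaged probe sets, a trended robust variance and array weights. Software also included pandas 2.3.3 and matplotlib 3.10.9.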

Additional observations from a re-analysis of the deposited data

How the results depend on the processing

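Of the differences recomputed for the 9 genes under 13 alternatives, 103 kept their direction and their side of the adjusted threshold, 2 passed it and 11 turned sign; Hhex was not among the genes kept with dim genes left out. Without Flattop-negative replicate 2, limma called 434 genes at an adjusted p of 0.05, among them 2 of the 9, Sst and Ppy, with the lone negative array assumed to vary like the positive group; under the other 12 alternatives 0 passed, with 1198 to 5335 genes at an unadjusted p under 0.05. With 1 array left out, the difference ran from -0.67 to 4.44 for Sst, -0.78 to 3.86 for Ppy, -0.77 to 0.83 for Pyy, -1.77 to 0.73 for Rbp4, -1.51 to 0.34 for Hhex and -0.15 to 0.52 for Ins2. Pyy turned sign on repeated quantile normalisation (-0.058) and, with Ins2 and Iapp, after cyclic loess (-0.40, -0.23 and -0.32). The cause was not tested. With the replicate block, Sst had 1.68 and Ppy 1.29 (adjusted p = 0.669 and 0.686 in limma) and no call changed. The labels do not say what the number marks. Deviations of same-numbered arrays correlated at 0.18 for number 1 and -0.14 for number 2 across genes. The deviations of the 2 negative arrays are mirror images, so each correlation takes the opposite sign against the other negative array. With only 2 shared numbers, these values cannot tell whether the numbers mark pairs.

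Over the 15 lists the median moved by more than the spread between arrays in 23 of 195 cases. The α-cell median was -0.41 with the replicate block, -0.27 with arrays centred, -0.24 on repeated quantile normalisation, -0.26 after cyclic loess and -0.38 with array weights, the β-cell median 0.76 and 0.71 under the quantile and loess settings, the ε-cell median -0.082 and -0.10, and the endothelial median -0.035 and -0.049. With dim genes left out the receptor median was 0.32 and the endothelial median -0.48. With 1 array left out the medians ran from -0.64 to -0.14 for α-cell, 0.75 to 1.15 for β-cell, -0.30 to 0.05 for PP-cell, -0.51 to -0.082 for endothelial, -0.41 to 0.071 for retinol genes, -0.40 to 0.105 for δ-cell, -0.45 to 0.11 for secreted peptide, -0.19 to 0.05 for receptor and -0.09 to 0.32 for regulator genes, all with the 9 genes kept in their lists. No depth applies to arrays. Signals near the top of the scale may limit the differences of Ins2, Iapp, Gcg, Sst and Ppy, which was not tested. Signals under the olfactory floor limit that of Hhex.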
